A study of Rattus norvegicus with 12 samples.

Results

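Vascular endothelial cells line every blood vessel of the lung, and 10 genes that mark them were followed here at the RNA level in rats with left heart failure: Kdr, Flt1, Tek, Tie1, Cdh5, Pecam1, Cldn5, Emcn, Esm1 and Cav1. The members were all probe sets whose single gene symbol in the platform annotation was one of these names. That gave 14 probe sets for 9 of the 10 genes, out of 31099 probe sets in all. Cdh5 had no probe set under its symbol and was not analysed here. Of the 14 probe sets, 13 passed the filter on low values (a log2 value of at least 4 in at least 3 arrays) and 1, the dim Kdr probe set 1397868_at, did not. A gene with several probe sets is described by its brightest one, with the others given beside it.

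The study asked what mast cells contribute to pulmonary hypertension in left heart disease, using ketotifen, a drug that stabilises mast cells. Whole lungs of male Sprague-Dawley rats were measured on the Affymetrix Rat Genome 230 2.0 array, with 1 array per lung and 3 lungs in each of 4 groups: heart failure (CHF) with ketotifen, CHF with placebo, sham surgery with ketotifen, and sham surgery with placebo. CHF was produced in juvenile rats by a clip around the aorta just above the coronary arteries, and sham rats had the operation without the clip. Lungs were taken 9 weeks later, a time at which the design text describes heart failure with ejection fraction still preserved and with raised pulmonary pressure. Ketotifen was given in the drinking water at 1 mg per kg per day from the first day after surgery. The labels call the rats without drug placebo rats, whereas the design text calls the CHF rats without drug untreated. All rats were males of one strain from one breeder, and RNA of the whole organ was measured, not sorted cells.

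Endothelial cells depend on growth factor signals that they receive through a small set of surface receptors. VEGF ligands act through Kdr, which carries most of the growth and survival signal, while Flt1 binds the same ligands tightly and signals weakly. Angiopoietins act through Tek, with Tie1 as its partner, and this pair keeps vessels quiescent. Pecam1 and Cldn5 sit in the contacts between endothelial cells, Emcn is a sialomucin on the surface of capillary and venous endothelium, Esm1 is a secreted proteoglycan that VEGF induces, and Cav1 builds the caveolae that are abundant in lung capillary endothelium.

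The regions just upstream of 4 genes are shown because these genes lay on opposite sides of the results, with Kdr, Cldn5 and Esm1 lower and Emcn higher in CHF ketotifen than in sham ketotifen lungs. They were chosen among the members with an entry in the promoter table, which Tek and Pecam1 did not have. Each is the 250 bases before the annotated start of the gene in the RefSeq table of build GRCr8, written 5′ to 3′ on the gene's strand. Capitals mark GGAA, the core of the sites bound by ETS factors, which control many endothelial genes, on either strand, so that TTCC is also marked.
Kdr: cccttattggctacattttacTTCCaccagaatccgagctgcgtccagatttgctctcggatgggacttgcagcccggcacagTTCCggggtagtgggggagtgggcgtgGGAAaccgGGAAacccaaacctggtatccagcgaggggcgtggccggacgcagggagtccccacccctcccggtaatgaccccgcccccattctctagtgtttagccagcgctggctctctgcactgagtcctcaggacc
Cldn5: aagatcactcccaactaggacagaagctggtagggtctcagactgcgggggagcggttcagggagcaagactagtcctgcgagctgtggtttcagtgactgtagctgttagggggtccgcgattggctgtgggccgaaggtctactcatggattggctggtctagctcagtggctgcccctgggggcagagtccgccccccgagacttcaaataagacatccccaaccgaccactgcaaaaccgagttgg
Esm1: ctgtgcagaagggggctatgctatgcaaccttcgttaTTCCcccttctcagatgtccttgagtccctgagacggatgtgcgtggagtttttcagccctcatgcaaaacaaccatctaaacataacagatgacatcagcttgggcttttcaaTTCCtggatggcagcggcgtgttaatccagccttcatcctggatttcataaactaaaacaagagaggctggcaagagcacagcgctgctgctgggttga
Emcn: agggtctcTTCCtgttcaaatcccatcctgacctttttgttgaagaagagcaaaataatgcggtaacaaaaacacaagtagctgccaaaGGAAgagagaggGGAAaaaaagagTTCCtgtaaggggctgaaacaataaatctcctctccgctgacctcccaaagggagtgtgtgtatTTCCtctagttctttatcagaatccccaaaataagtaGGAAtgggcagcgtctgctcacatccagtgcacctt

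These regions lie at chr14:32571813-32572062 on the plus strand for Kdr, chr11:95718599-95718848 on the minus strand for Cldn5, chr2:46609003-46609252 on the plus strand for Esm1 and chr2:228564289-228564538 on the plus strand for Emcn. The Emcn window held 6 of these letters' matches, a number that 9.27% of the 33469 promoters in the table reach. The Kdr window held 4, the Esm1 window 2 and the Cldn5 window 0, whereas 93.2% of all promoters held at least 1 and their median was 3. G and C made up 44.4% of the Emcn window, against 61.6% for Kdr, 58.4% for Cldn5 and 49.2% for Esm1, with a median of 51.2% over all promoters. Flt1, Tie1 and Cav1 were also in the table, with 3 matches for Flt1, 4 for Tie1 and 2 at each of the annotated starts of Cav1. A match is a run of letters and not a measured site.

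Several lungs stood apart from their groups, and this touches results below. CHF placebo lung 1 correlated more closely over all kept probe sets with CHF ketotifen lung 1 (r = 0.974) than with CHF placebo lungs 2 and 3 (r = 0.966 and 0.947). It was not alone in this. Sham placebo lung 1 was closer to sham ketotifen lung 3 (r = 0.983) than to sham placebo lungs 2 and 3 (r = 0.929 and 0.963). CHF placebo lung 2 was closer to sham ketotifen lung 3 (r = 0.982) than to CHF placebo lungs 1 and 3 (r = 0.966 and 0.981). CHF ketotifen lungs 1 and 3 were the most alike of all pairs of arrays (r = 0.993). Cardiomyocyte markers, which belong to the heart and to the muscle sleeve of pulmonary veins, were bright in sham ketotifen lungs 1 and 2 and in sham placebo lung 3, where the 5 measured genes averaged 6.96, 10.31 and 9.30 on the log2 scale. In the other 9 lungs they averaged at most 3.00. The signal difference between 3′ and 5′ beta-actin probe sets, a sign of RNA degradation, was largest in sham ketotifen lung 2 (4.52) and in sham placebo lungs 2 and 3 (4.23 and 3.90), against 2.90 to 3.45 in the other lungs.

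The endothelial genes did not move as one block in heart failure. In rats given ketotifen, Kdr, Flt1, Tek, Tie1, Cldn5 and Esm1 fell in CHF lungs relative to sham lungs, Emcn rose, and Pecam1 and Cav1 did not pass the test. These calls covered 7 of the 13 member probe sets, where 13.0% of all 16536 probe sets tested were called, 6.61% lower and 6.36% higher. The median of the 9 genes was a log2 difference of -0.95, against -0.03 over all probe sets. Groups that did not overlap, named at several genes below, were found for 40.1% of all probe sets in this comparison. In rats given placebo, 0 of 13 member probe sets were called between CHF and sham lungs by limma, where 0.169% of all probe sets were called. At an unadjusted p under 0.05, 5 of the 13 passed there (Tek, Tie1, Pecam1, Esm1 and the dimmest Flt1 probe set), against 20.1% of all. The median of the 9 genes was -0.22 there, against 0.02 over all probe sets. All differences are between group means of log2 values, so that a difference of 1 is a doubling, each is given with the standard error of a limma fit of all 12 arrays, and "called" means an adjusted p under 0.05 over all probe sets tested. The lung is a mixture, so that fewer endothelial cells and less RNA per endothelial cell cannot be told apart by any of these values.

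**Figure D1:**
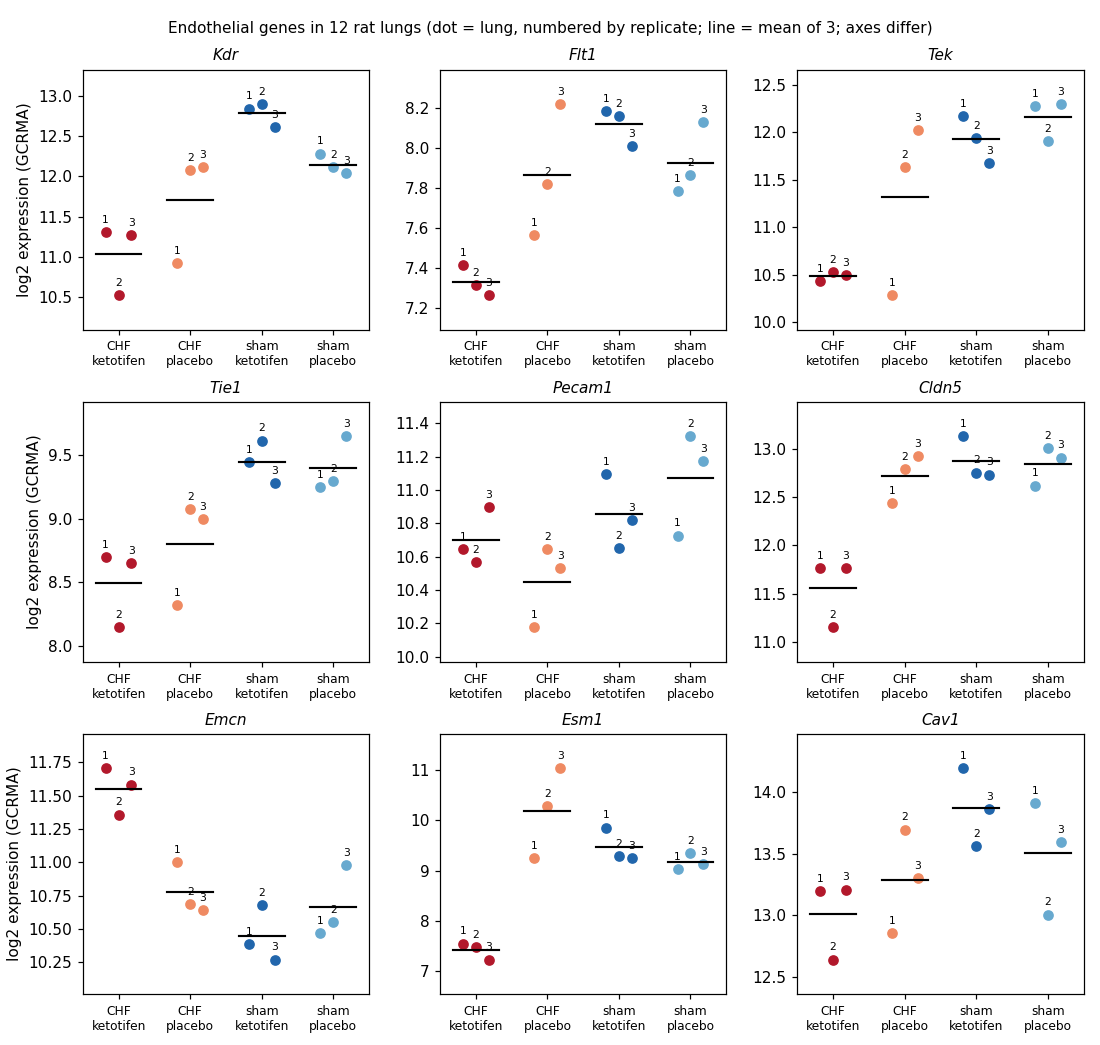
Log2 expression (vertical axis) of the brightest probe set of each of the 9 measured genes in each lung (dots, numbered by replicate) for the 4 groups on the horizontal axis, with the mean of 3 lungs as a line and vertical axes that differ between panels. Esm1 lay between 7.23 and 7.55 in CHF ketotifen lungs and at 9.04 or higher in all other lungs, and Emcn was highest in the CHF ketotifen lungs.

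Kdr, the main signalling receptor for VEGF, gave log2 values of 11.31, 10.52 and 11.27 in CHF ketotifen lungs, against 12.84, 12.90 and 12.61 in sham ketotifen lungs. Every CHF ketotifen lung lay more than 1 log2 unit below every sham ketotifen lung. The difference was -1.75 ± 0.30 (SE, limma adjusted p = 0.00738), which is 29.7% of the sham ketotifen level. Kdr gave 10.92, 12.08 and 12.11 in CHF placebo lungs, against 12.28, 12.11 and 12.04 in sham placebo lungs. Only CHF placebo lung 1 was well below the sham placebo lungs, and the difference of -0.44 ± 0.30 was not called (adjusted p = 0.435) and came to -0.05 without that lung. Sham ketotifen lungs were all above sham placebo lungs, by 0.64 ± 0.30, which was not called either (adjusted p = 0.374), and 16.4% of all probe sets had sham groups that did not overlap. The groups thus ran from sham ketotifen through sham placebo and CHF placebo to CHF ketotifen, and of these neighbours only the sham groups did not overlap. The second Kdr probe set stayed between 2.26 and 2.41 in every lung, in the range where these values are flat.

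Flt1, the tight-binding VEGF receptor, gave 7.41, 7.31 and 7.26 in CHF ketotifen lungs and 8.19, 8.16 and 8.01 in sham ketotifen lungs with its brightest probe set, 1377113_at. These groups did not overlap, and Flt1 fell by 0.79 (SE 0.17, adjusted p = 0.0173). Its values were 7.56, 7.82 and 8.22 in CHF placebo lungs, against 7.78, 7.86 and 8.13 in sham placebo lungs. The placebo groups overlapped, and the difference of -0.06 ± 0.17 was not called (adjusted p = 0.882). All 3 CHF ketotifen lungs were below all 3 CHF placebo lungs for Flt1, by 0.54 ± 0.17, which did not pass the adjustment (adjusted p = 0.150). In that comparison 25.4% of all probe sets had groups that did not overlap. From high to low, the Flt1 means ran from sham ketotifen through sham placebo and CHF placebo to CHF ketotifen, and only the last of these neighbours did not overlap.

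The other Flt1 probe sets were dimmer and noisier. Probe set 1369087_at gave 6.53, 5.26 and 6.35 in CHF ketotifen lungs, against 8.03, 7.42 and 7.66 in sham ketotifen lungs, a difference of -1.66 ± 0.56 (adjusted p = 0.0729). It was also low in CHF placebo lung 1, at 5.87, against 7.70 and 8.24 in CHF placebo lungs 2 and 3. Probe set 1370492_a_at gave 5.16, 4.76 and 4.89 in CHF ketotifen lungs and 5.29, 5.17 and 5.53 in sham ketotifen lungs, a difference of -0.39 ± 0.24 (adjusted p = 0.287). All 3 Flt1 probe sets were thus lower in CHF ketotifen than in sham ketotifen lungs, but only the brightest was called. In the placebo arm the dimmest one was higher in CHF, by 0.55 ± 0.24 (adjusted p = 0.232), whereas the other two differed by -0.06 and -0.23. The correlation with the brightest probe set over the 12 arrays was 0.83 for 1369087_at and 0.42 for 1370492_a_at.

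**Figure D2:**
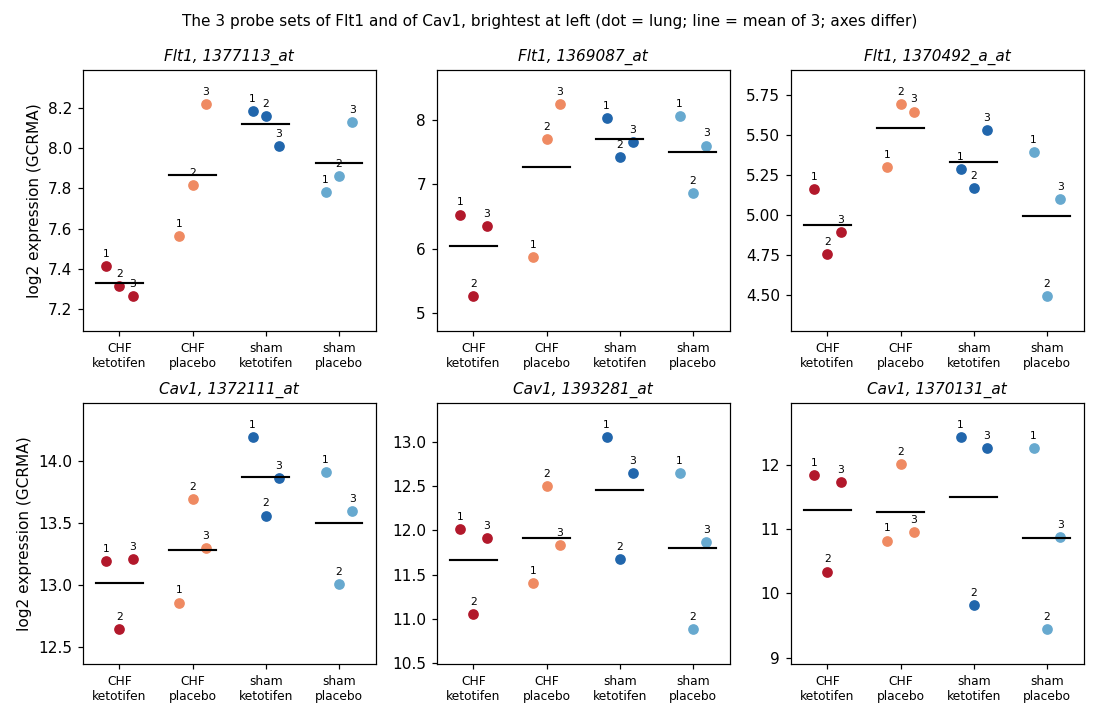
Log2 expression (vertical axis) of the 3 probe sets of Flt1 (top row) and of Cav1 (bottom row) in each lung (dots, numbered by replicate) of the 4 groups, brightest probe set at left, with the mean of 3 lungs as a line and vertical axes that differ. The 3 Flt1 probe sets share lower values in CHF ketotifen than in sham ketotifen lungs, while the dimmest Cav1 probe set has its lowest values in sham ketotifen lung 2 (9.82) and sham placebo lung 2 (9.44).

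Other genes of the VEGF pathway moved both ways. Of 7 measured VEGF ligands and receptors outside the members, 2 fell and 1 rose in CHF ketotifen lungs relative to sham ketotifen lungs. Vegfa, the ligand of Kdr and Flt1, gave 10.75, 10.25 and 10.74 in CHF ketotifen lungs, against 12.45, 11.69 and 12.21 in sham ketotifen lungs (-1.54 ± 0.30, adjusted p = 0.0121). Its groups did not overlap, and in the placebo arm the difference was -0.33 ± 0.30 (adjusted p = 0.573). The coreceptor Nrp1 fell by 0.66 (SE 0.16, adjusted p = 0.0260) and was called in 1 of 6 runs that left out 1 lung. Pgf, a ligand of Flt1 but not of Kdr, rose (adjusted p = 0.0116), with 5.77, 5.37 and 6.63 in CHF ketotifen lungs against 4.44, 3.61 and 3.60 in sham ketotifen lungs. As 2 of the 3 sham ketotifen values were below the filter value of 4, where these values are flat, no size is given for Pgf. A second Vegfa probe set had a like difference of -1.55 that was not called (adjusted p = 0.106), and a second Nrp1 probe set gave -0.91 (adjusted p = 0.158). Vegfa was also the gene with the second closest pattern to Cav1 over the 12 arrays (r = 0.961).

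Tek, the angiopoietin receptor, gave 10.43, 10.53 and 10.50 in CHF ketotifen lungs, against 12.17, 11.94 and 11.67 in sham ketotifen lungs. The CHF ketotifen lungs were close to each other and all below the sham ketotifen lungs, and the difference was -1.44 ± 0.35 (adjusted p = 0.0254). Tek gave 10.28, 11.63 and 12.02 in CHF placebo lungs, against 12.27, 11.91 and 12.30 in sham placebo lungs. CHF placebo lung 1 was at the level of the CHF ketotifen lungs and the other two lungs were near the sham lungs, so that the difference of -0.84 ± 0.35 (adjusted p = 0.216) came to -0.33 without lung 1. Over both arms together Tek fell by 1.14 (SE 0.25, adjusted p = 0.0124), and the surgery difference was not shown to differ between arms (interaction -0.59 ± 0.49, adjusted p = 0.686). The Tek means ran from sham placebo through sham ketotifen and CHF placebo to CHF ketotifen, and every neighbour in this order overlapped.

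Tie1, the partner of Tek, was lower in each of the 6 CHF lungs than in any of the 6 sham lungs. It gave 8.70, 8.15 and 8.65 in CHF ketotifen lungs and 8.32, 9.08 and 9.00 in CHF placebo lungs. The sham lungs had 9.45, 9.62 and 9.28 with ketotifen and 9.25, 9.30 and 9.65 with placebo. Averaged over the arms, the difference was -0.77 ± 0.16 (adjusted p = 0.00998). It was the only member whose 6 CHF and 6 sham lungs did not overlap, a separation that 4.14% of all probe sets showed. The difference was -0.95 ± 0.22 with ketotifen (adjusted p = 0.0226) and -0.60 ± 0.22 with placebo (adjusted p = 0.182). Within the sham lungs and within the CHF lungs the drug groups overlapped.

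The measured partners of the Tie receptors were few. Of 4, Ptprb fell and Angpt2 and Angptl4 rose in CHF ketotifen relative to sham ketotifen lungs. Ptprb, the endothelial phosphatase that dampens Tek signalling, gave 11.15, 10.50 and 11.09 in CHF ketotifen lungs, against 12.73, 12.52 and 12.62 in sham ketotifen lungs (-1.71 ± 0.31, adjusted p = 0.00908). A second Ptprb probe set also fell, by 1.89. Angpt2, the ligand that can oppose Tek activation, rose by 0.89 ± 0.26 (adjusted p = 0.0475), with 7.79, 7.31 and 7.44 in CHF ketotifen lungs and 6.59, 6.73 and 6.54 in sham ketotifen lungs. The Angpt2 call was lost in 6 of 6 runs that left out 1 lung, and so was that of Angptl4 (2.30 ± 0.59, adjusted p = 0.0301). Angpt1, the activating ligand of Tek, differed by -1.13 ± 0.43 and was not called (adjusted p = 0.102).

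Cldn5, the main claudin of endothelial tight junctions, fell with the drug inside heart failure. It gave 11.77, 11.15 and 11.77 in CHF ketotifen lungs, against 12.44, 12.79 and 12.93 in CHF placebo lungs. The groups did not overlap, and the difference was -1.16 ± 0.20 (adjusted p = 0.0191), 44.8% of the CHF placebo level. Sham ketotifen lungs had 13.13, 12.75 and 12.73 and sham placebo lungs 12.62, 13.00 and 12.91. The CHF ketotifen lungs were thus also below all sham ketotifen lungs (-1.31 ± 0.20, adjusted p = 0.00447), while CHF and sham placebo lungs overlapped (-0.13 ± 0.20, adjusted p = 0.767). Leaving out CHF placebo lung 2 or 3 or CHF ketotifen lung 2 ended the call between CHF ketotifen and CHF placebo lungs, with adjusted p up to 0.105. Sham ketotifen, sham placebo and CHF placebo lungs overlapped as neighbours in the order of the means, and only CHF ketotifen lungs stood clear at the low end. A test of whether the surgery difference differed between arms did not pass (interaction -1.19 ± 0.28, adjusted p = 0.142).

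Pecam1, an adhesion molecule of endothelial contacts that platelets and leukocytes also carry, was not called in any comparison. It gave 10.65, 10.57 and 10.90 in CHF ketotifen lungs, against 11.09, 10.65 and 10.82 in sham ketotifen lungs (-0.15 ± 0.19, adjusted p = 0.611). It gave 10.18, 10.64 and 10.53 in CHF placebo lungs, against 10.73, 11.32 and 11.17 in sham placebo lungs. In the placebo arm the groups did not overlap, which 23.4% of all probe sets also showed, and the difference of -0.62 ± 0.19 was not called (adjusted p = 0.130). Without sham placebo lung 1 it was called at an adjusted p of 0.0253 (difference -0.80). The Pecam1 means ran from sham placebo through sham ketotifen and CHF ketotifen to CHF placebo, and each neighbour overlapped the next. Between CHF ketotifen and sham ketotifen lungs 6 of 8 macrophage markers rose, and so did Pf4, a platelet marker (1.47 ± 0.37, adjusted p = 0.0295). Pf4 was called in 0 of 6 runs that left out 1 lung. The part of these markers in the Pecam1 values was not tested.

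Of 13 other genes of endothelial junctions, 6 fell (Ctnnd1, Jup, Jam2, Tjp1, Icam2 and Afdn) and 1 rose (Jam3) in CHF ketotifen relative to sham ketotifen lungs, with a list median of -0.33. Most of these genes also serve epithelial junctions. Tjp1, a scaffold of tight junctions, gave 11.15, 10.72 and 11.08 in CHF ketotifen lungs, against 11.82, 11.88 and 11.92 in sham ketotifen lungs (-0.89 ± 0.17, adjusted p = 0.0107). It was called in 6 of 6 runs that left out 1 lung, whereas Jam2, Jam3 and Afdn were called in 0 of 6. The 2 other Afdn probe sets differed by 0.09 and -0.11, against -0.65 for the brightest. Leaving out 1 lung brought the number that fell to between 1 and 3.

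Emcn was the only member called higher in CHF than in sham lungs, with ketotifen and in the average over arms but not with placebo. Its values were 11.70, 11.36 and 11.58 in CHF ketotifen lungs, against 10.39, 10.68 and 10.27 in sham ketotifen lungs. The lowest CHF ketotifen lung lay above the highest lung of every other group, and the difference from sham ketotifen was 1.10 ± 0.17 (adjusted p = 0.00485), a level of 215% of sham ketotifen. Emcn gave 11, 10.69 and 10.64 in CHF placebo lungs, against 10.47, 10.55 and 10.98 in sham placebo lungs. These groups overlapped, and the placebo difference of 0.11 ± 0.17 was not called (adjusted p = 0.757). CHF ketotifen lungs were above CHF placebo lungs by 0.77 ± 0.17, just short of the threshold (adjusted p = 0.0583). Without CHF placebo lung 1, the lung of that group nearest to the ketotifen lungs, the difference was 0.88 with an adjusted p of 0.0204. The rise over both arms was 0.61 ± 0.12 (adjusted p = 0.00939), and sham placebo and sham ketotifen lungs overlapped at the low end. A difference between arms was not called (interaction 0.99 ± 0.24, adjusted p = 0.154).

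Esm1, the secreted proteoglycan also called endocan, showed the largest differences of the 9 genes in both comparisons of CHF ketotifen lungs. It gave 7.55, 7.48 and 7.23 in CHF ketotifen lungs, against 9.25, 10.29 and 11.03 in CHF placebo lungs. The difference was -2.78 ± 0.35 (adjusted p = 0.00317), so that CHF ketotifen lungs had 14.6% of the CHF placebo level. Sham ketotifen lungs gave 9.86, 9.29 and 9.26 and sham placebo lungs gave 9.04, 9.35 and 9.13. Against sham ketotifen, CHF ketotifen lungs differed by -2.05 ± 0.35 (adjusted p = 0.00763). With placebo the sign was opposite: CHF lungs were above sham placebo lungs by 1.02 ± 0.35, which was not called (adjusted p = 0.163), with CHF placebo lung 1 overlapping the sham placebo lungs. The surgery differences of the arms differed by -3.07 ± 0.50 (95% interval -4.18 to -1.97, adjusted p = 0.0293), the only interaction called among the 13 member probe sets, where 0.369% of all probe sets were called. This interaction was called in 3 of 12 runs that left out 1 lung, with adjusted p up to 0.105. It was -2.84 without the 3 lungs with cardiomyocyte signal, a fit with a single sham ketotifen lung. The order of the group means was CHF placebo, sham ketotifen, sham placebo and CHF ketotifen, and only the last step was free of overlap.

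Between CHF ketotifen and CHF placebo lungs, Esm1 and Cldn5 were the only members called, 2 of 13 probe sets where 1.22% of all were called. The median difference of the 9 genes was -0.54, against -0.04 over all probe sets. CHF placebo lung 1 weighed on this comparison. Without it the adjusted p was 0.0196 for Kdr (-1.06), 0.0364 for Flt1 (-0.69), 0.00289 for Tek (-1.34) and 0.0204 for Emcn (0.88). In that run 7 member probe sets were called, and runs that left out 1 lung called 72 to 1219 of all 16536. Lung 1 was the CHF placebo lung most like the CHF ketotifen lungs, so that leaving it out tends to widen the difference by selection. These added calls are therefore no separate support for a difference between the CHF groups. In sham rats, 0 of 13 member probe sets were called between ketotifen and placebo by limma, where 0.0847% of all probe sets were called and 14.0% had an unadjusted p under 0.05, but 0 of 13 members did.

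**Figure D3:**
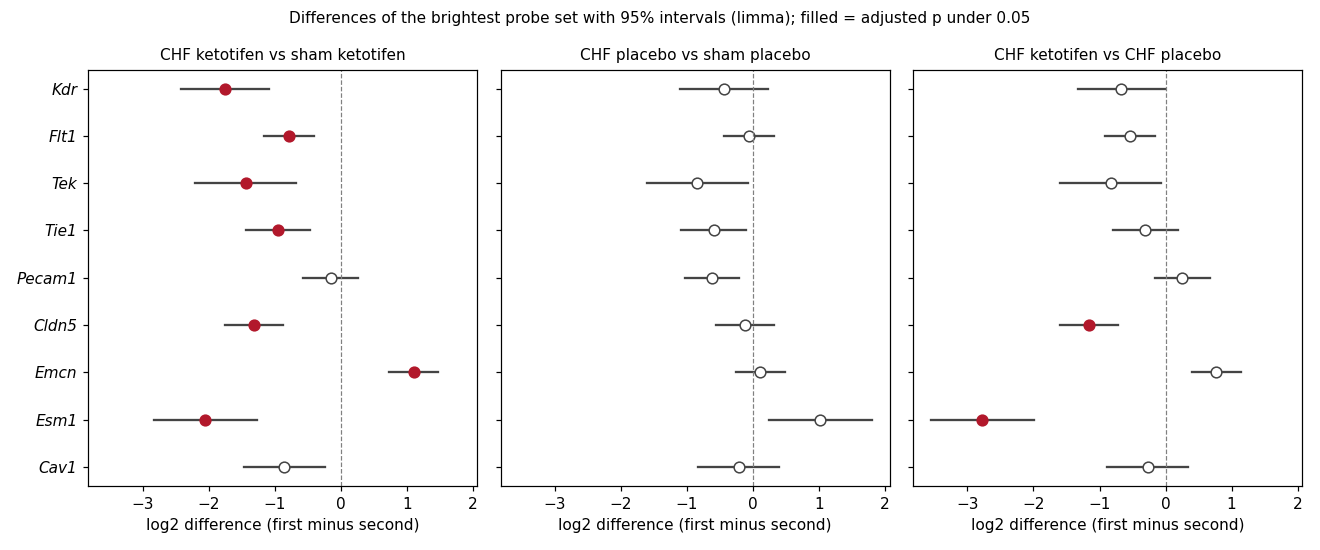
Log2 differences (horizontal axis, first group minus second) of the brightest probe set of the 9 genes (vertical axis) with 95% intervals of the limma fit, for 3 comparisons, filled points having an adjusted p under 0.05. Kdr, Flt1, Tek, Tie1, Cldn5 and Esm1 are filled below 0 and Emcn above 0 in CHF ketotifen against sham ketotifen, none is filled in CHF placebo against sham placebo, and Cldn5 and Esm1 are filled in CHF ketotifen against CHF placebo.

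Cav1, the coat protein of caveolae, which alveolar type 1 cells also express, gave 13.20, 12.64 and 13.21 in CHF ketotifen lungs, against 14.19, 13.56 and 13.86 in sham ketotifen lungs. These groups did not overlap, but the difference of -0.86 ± 0.28 was not called (adjusted p = 0.0650). Cav1 gave 12.86, 13.70 and 13.30 in CHF placebo lungs, against 13.91, 13.01 and 13.60 in sham placebo lungs, with overlap and a difference of -0.22 ± 0.28 (adjusted p = 0.701). The second probe set, 1393281_at, differed by -0.80 ± 0.48 with ketotifen and the third, 1370131_at, by -0.20 ± 0.80. The third ran from 9.44 to 12.43 and was lowest in sham placebo lung 2 and sham ketotifen lung 2, the lungs with the largest 3′ to 5′ actin differences, and the part of RNA quality in these values was not tested. Among 5 caveola partners only Cavin2 was called, and it fell by 1.46 in CHF ketotifen relative to sham ketotifen lungs (SE 0.37, adjusted p = 0.0301). Cavin2 was called in 1 of 6 runs that left out 1 lung. The Cav1 means ran from sham ketotifen through sham placebo and CHF placebo to CHF ketotifen, and each neighbour overlapped the next. Cav2, which assembles with Cav1, differed by -0.60 ± 0.32 (adjusted p = 0.216).

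Averaged over both arms, CHF lungs had lower Kdr (-1.10 ± 0.21, adjusted p = 0.00870), Flt1 (-0.42 ± 0.12, adjusted p = 0.0320), Tek, Tie1 and Cldn5 (-0.72 ± 0.14, adjusted p = 0.00893) than sham lungs, and higher Emcn. The median of the 9 genes was -0.54, against -0.02 over all probe sets. That was 6 of 13 member probe sets, where 21.0% of all probe sets were called in either direction. Pecam1 (-0.39), Cav1 (-0.54) and Esm1 (-0.52) were not called, with adjusted p of 0.0599, 0.0729 and 0.157. The average weighs the arms equally, and for Esm1 it combines differences of opposite sign. Kdr, Tek, Tie1, Cldn5 and Emcn were called in all 12 runs that left out 1 lung, and Flt1 in 3 of 12. The lungs with cardiomyocyte signal and those of largest 3′ to 5′ actin difference are all sham lungs. Runs that left out 1 lung do not show that the average calls hold without either set.

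In CHF ketotifen against sham ketotifen, Kdr, Cldn5, Emcn and Esm1 were called in 6 of 6 runs that left out 1 lung, Flt1 and Tie1 in 3 of 6 and Tek in 1 of 6. Leaving out the 3 lungs with cardiomyocyte signal leaves a single sham ketotifen lung, assumed to vary like the other groups. That fit cannot decide whether the calls of the members, or of the gene lists below, hold without these lungs. The differences kept their direction, with -1.58 for Kdr, -1.17 for Cldn5, -1.84 for Esm1 and 1.28 for Emcn. Without the 3 lungs of largest 3′ to 5′ actin difference, the differences with ketotifen were -1.69 for Kdr, -0.77 for Flt1 and -1.43 for Tek. They were -0.87 for Tie1 and -1.37 for Cldn5. That removal leaves a single sham placebo lung, also assumed to vary like the other groups, and only sizes are given for it. They do not show that the calls of the members, or of the gene lists below, hold without these lungs.

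The 9 genes also varied together between lungs, with Emcn running the other way. Of 36 pairs of members, 27 had a Pearson r above 0 over the 12 arrays, as a description with no test. Kdr and Tie1 were the closest pair (r = 0.92), and Emcn had r from -0.82 (with Cldn5) to -0.24 (with Pecam1) with the other 8. After the group means were subtracted, 31 of 36 pairs were above 0, and the r of Kdr and Tie1 was 0.85. Emcn then had r from -0.43 (with Esm1) to 0.26 (with Tie1), below 0 with 5 of the other 8 members, and 0.11 with Cldn5. The arrays share groups, RNA quality and admixture, so that these values do not separate endothelial variation from that of the whole sample.

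The genes whose values ran most like a member over the 12 arrays were Ceacam1 (r = 0.969), Tspan7 (0.962) and Afap1l1 (0.955) for Kdr. They were Ece1 (0.982), App (0.981) and Col6a5 (0.975) for Tek, and Tle4 (0.972), Cyyr1 (0.966) and Pitpnc1 (0.965) for Tie1. For Flt1 they were Zmiz1 (0.977), Zfp667 (0.953) and Dele1 (0.950), and for Cldn5 Tmcc2 (0.966), Hyal2 (0.964) and Tusc2 (0.963). Emcn ran closest to Stambpl1 (0.945), Slc7a1 (0.942) and Nr4a3 (0.938), and Esm1 to Rab2a (0.928), Tmem140 (0.926) and Pctp (0.920). Cav1 ran closest to Kank2 (0.962), Vegfa (0.961) and Clic5 (0.945), the last a gene of alveolar type 1 cells. Pecam1 had the weakest likeness, with Nol6 (0.906), Mir23b (0.902) and Chd2 (0.893).

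Other genes shared by most endothelial cells also moved in both directions. Of 24 further pan-endothelial genes 22 had a probe set under their symbol, all of which passed the filter on low values, and 11 of the 22 fell and 2 rose in CHF ketotifen relative to sham ketotifen lungs, with a median of -0.85. The 11 were Clec14a, Ramp2, Vwf, S1pr1, Tmem100, Thbd, Podxl, Bmpr2, Acvrl1, Plvap and Bmp6. Thbd, the thrombin receptor that starts the anticoagulant protein C pathway, gave 12.04, 11.86 and 12.17 in CHF ketotifen lungs, against 12.77, 12.95 and 12.74 in sham ketotifen lungs (-0.80 ± 0.15, adjusted p = 0.0115). The 2 that rose were Stab1, a scavenger receptor that macrophages also carry (1.86 ± 0.30, adjusted p = 0.00579), and Egfl7, a protein secreted by endothelial cells (1.69 ± 0.39, adjusted p = 0.0213). Egfl7 gave 11.22, 11.16 and 11.51 in CHF ketotifen lungs and 10.17, 8.74 and 9.90 in sham ketotifen lungs, and a second Egfl7 probe set also rose, by 0.85. In the placebo arm 0 of the 22 were called. Leaving out 1 lung gave 5 to 8 that fell and 1 to 2 that rose, and Ramp2, Podxl and Bmpr2 were called in 0 of 6 such runs. These ranges do not cover the removal of the lungs of largest 3′ to 5′ actin difference.

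Transcription factors of endothelial cells were measured for 22 of 22 genes, of which 4 fell (Klf2, Gata2, Foxf1 and Epas1) and 1 rose (Ets2) in CHF ketotifen relative to sham ketotifen lungs. Leaving out 1 lung gave 2 to 5 that fell and 0 to 1 that rose, and Foxf1 was called in 2 of 6 such runs. Klf2, which is induced by blood flow, gave 11.51, 10.73 and 11.60 in CHF ketotifen lungs, against 12.22, 13.15 and 12.39 in sham ketotifen lungs (-1.31 ± 0.27, adjusted p = 0.0147). Its groups did not overlap, but 3 dimmer Klf2 probe sets were not called, with differences of -1.09, -0.14 and -0.10. Gata2 fell by 1.90 (SE 0.38, adjusted p = 0.0136). Ets2, a member of the ETS family, gave 9.82, 10.55 and 9.85 in CHF ketotifen lungs, against 8.96, 9.03 and 9.08 in CHF placebo lungs, and it was called there too (1.05 ± 0.20, adjusted p = 0.0339).

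Markers of particular vessel segments are shown next because the members differ in where they are usually strongest. Of 7 measured markers of aerocytes, the large capillary cells of gas exchange, 3 fell in CHF ketotifen relative to sham ketotifen lungs, with a list median of -0.93. Car4, a membrane carbonic anhydrase, gave 7.75, 5.57 and 7.90 in CHF ketotifen lungs, against 9.57, 9.69 and 9.22 in sham ketotifen lungs (-2.42 ± 0.52, adjusted p = 0.0168). Prx fell by 2.55 (SE 0.51, adjusted p = 0.0130) and Apln, the apelin ligand, by 1.18 (SE 0.24, adjusted p = 0.0137). Of 8 general capillary markers 3 fell, Tek among them with Plvap (-1.18 ± 0.22, adjusted p = 0.0101) and Ptprb, and Lpl rose (1.55 ± 0.30, adjusted p = 0.0116). Macrophages and fat cells also express Lpl, a lipase.

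Arterial, venous and lymphatic markers each had 1 gene that fell and 1 that rose in CHF ketotifen relative to sham ketotifen lungs. Among 7 arterial markers the Notch ligand Dll4 fell by 2.34 (SE 0.53, adjusted p = 0.0209), and Mgp, a matrix protein that other vessel wall cells also make, rose. Among 5 venous markers, Vwf fell by 1.55 (SE 0.36, adjusted p = 0.0225) and Selp, which is also stored in platelets, rose (adjusted p = 0.0216). Vwf was called in 1 of 6 runs that left out 1 lung. Selp gave 4.80, 6.47 and 4.40 in CHF ketotifen lungs, against 3.14, 3.62 and 3.11 in sham ketotifen lungs, all 3 of these below the filter value, so that no size is given. Among 6 lymphatic markers, Lyve1, which some lung macrophages and capillaries also express, gave 9.99, 8.67 and 9.89 in CHF ketotifen lungs, against 12.48, 12.42 and 12.41 in sham ketotifen lungs (-2.92 ± 0.63, adjusted p = 0.0168). The chemokine Ccl21 rose by 2.01 ± 0.38 (adjusted p = 0.0109). Of 9 genes of tip cells and angiogenesis, the class in which Esm1 is usually placed, Apln and Dll4 fell and Angpt2, Pgf and Plaur rose, so that they had no common direction. Plaur, the urokinase receptor, which myeloid cells also express, gave 8.64, 8.63 and 8.79 in CHF ketotifen lungs and 5.15, 3.40 and 5.17 in sham ketotifen lungs. It was also above CHF placebo lungs, by 2.73 ± 0.55 (adjusted p = 0.0399). Ets2 and Plaur were the only genes of these endothelial lists, members aside, whose brightest probe set was called between the CHF groups, and each was called there in 1 of 6 runs that left out 1 lung.

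**Figure D4:**
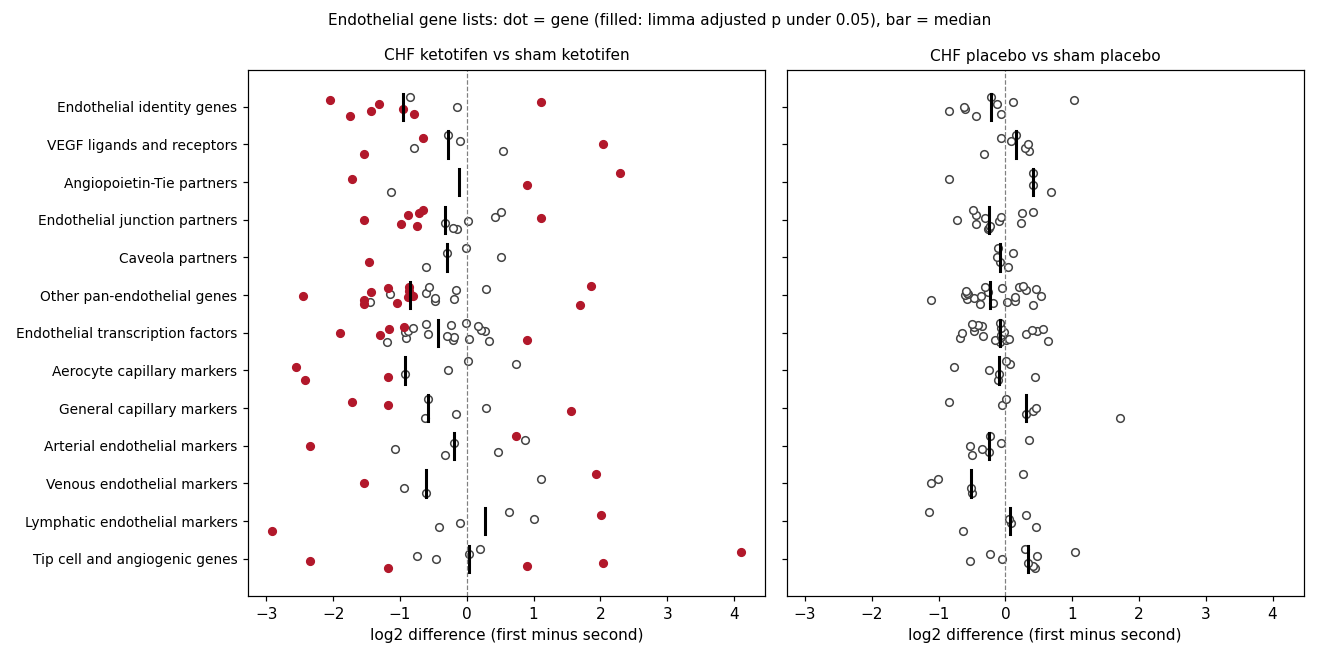
Log2 differences (horizontal axis, first group minus second) of every measured gene in 13 endothelial gene lists (rows, member genes shown only in the top row), each dot a gene, filled at a limma adjusted p under 0.05, with the median of a list as a bar. In CHF ketotifen against sham ketotifen the members have a median of -0.95 and the other pan-endothelial genes one of -0.85, whereas in CHF placebo against sham placebo no dot is filled.

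Markers of other cell types moved in the same comparisons, and their part in the endothelial values was not tested. Macrophage markers averaged 9.10 to 9.56 in CHF ketotifen lungs, 8.14 to 9.19 in CHF placebo lungs, 7.26 to 7.66 in sham ketotifen lungs and 6.12 to 7.76 in sham placebo lungs, as mean log2 levels of 8 measured genes, and 6 of 8 (C1qa, C1qb, Itgax, Adgre1, Mrc1 and Gpnmb) were called higher in CHF ketotifen than in sham ketotifen lungs. With 1 lung left out 2 to 4 of these 8 were called higher. C1qa, a complement component, had the smallest p of them (2.35 ± 0.34, adjusted p = 0.00363). Alveolar type 1 markers, which share thin walls with capillaries, averaged 9.49 to 9.84 in CHF ketotifen lungs, 10.01 to 10.61 in CHF placebo lungs, 10.42 to 10.79 in sham ketotifen lungs and 9.37 to 10.66 in sham placebo lungs, and 2 of 7, Akap5 and Clic5, fell in CHF ketotifen relative to sham ketotifen lungs. That count was 1 to 2 with 1 lung left out, a range that does not cover the removal of the lungs of largest 3′ to 5′ actin difference. Alveolar type 2 markers averaged 13.70 to 13.92 in CHF ketotifen lungs, against 13.48 to 13.90 in sham ketotifen lungs, with 0 of 7 called. Club cell markers fell for 3 of 5 genes (Cyp2f4, Cyp2a3 and Aldh1a1), with 1 to 2 when 1 lung was left out, and ciliated cell markers for 1 of 8 (Tppp3), with 0 when 1 lung was left out. Averaged over both arms, 4 of 5 club and 5 of 8 ciliated cell markers were called lower in CHF lungs, where 9.92% of all probe sets were. Leaving out 1 lung gave 3 to 4 and 1 to 8. Ciliated cell markers averaged 9.73 and 8.54 in sham placebo lungs 2 and 3, against 5.76 to 7.29 in the other lungs. Of 5 pericyte markers 1 fell (Cox4i2), of 8 fibroblast markers 1 rose (Fn1), and 0 of 7 smooth muscle markers were called. Among blood and immune cells, 1 of 2 red cell markers (Hbb), 1 of 2 platelet markers (Pf4) and 3 of 8 mast cell markers (Cma1, Mcpt1l1 and Fcer1a) rose, and 0 of 3 lymphocyte markers were called. Between CHF placebo and sham placebo lungs, 5 of 8 mast cell markers and Hbb were called higher, where 0.169% of all probe sets were called. For the 9 members the mean level was 9.97 to 10.30 in CHF ketotifen lungs, 10.31 to 11.09 in CHF placebo lungs, 10.95 to 11.26 in sham ketotifen lungs and 10.93 to 11.10 in sham placebo lungs. The lowest of the CHF placebo lungs in this mean was again lung 1, which also had the highest macrophage level and the lowest alveolar type 1 level of its group.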

How the data were processed

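The values were the log2 expression values per probe set that the authors deposited, and the submitters' processing notes name GCRMA and R 2.5.0 as the tools. GCRMA models background from probe sequence and flattens low values, so that differences near background are understated. Further settings were not given in these sources. Symbols came from the platform annotation. After 57 control probe sets were left out, probe sets with log2 of at least 4 in at least 3 of 12 arrays were kept (16536). They were fitted with limma 3.58.1 in R 4.3.3, with 4 group means over 12 arrays, no block, an intensity trend and two-sided Benjamini-Hochberg adjustment over all kept probe sets, at a threshold of 0.05. The script was tested on simulated data. The members and the 25 gene lists were chosen with earlier results of these data known. All members are named. From each list up to 4 genes, of smallest p in the average surgery comparison or in CHF ketotifen against CHF placebo, could be named with values. Not all of these are printed, and other called genes are given by name. Lists are described by counts, over genes with a probe set that passed the filter, and not tested. The comparisons share arrays: those of CHF ketotifen use the same 3 lungs. The p-values rest on the spread between rats within groups, pooled over the 4 groups and adjusted towards that of probe sets of like intensity. This spread may include technical spread, and the number of arrays limits the precision. The groups differed in spread, as for Tek, with a standard deviation of 0.05 in CHF ketotifen and 0.91 in CHF placebo lungs. Replicate numbers did not pair the lungs: of 18 correlations of deviations between lungs of the same number, 5 were above 0.1 (range -0.35 to 0.26). Alternatives were the filter, the variance model, array weights, normalization, the groups in the fit, a replicate block, and leaving out lungs.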

Additional observations from a re-analysis of the deposited data

Results flagged for a closer look

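Esm1 (probe set 1368078_at) was the member whose surgery difference differed between the drug arms by a test of that difference, with an interaction of -3.07 on the log2 scale (limma adjusted p = 0.0293). CHF lungs were below sham lungs with ketotifen (-2.05 ± 0.35) and above them with placebo (1.02 ± 0.35, not called), and all 3 CHF ketotifen lungs lay below every other lung. The interaction was called in 3 of 12 runs that left out 1 lung, with values from -3.54 to -2.65 and adjusted p from 0.00106 to 0.105, and it was not called with the replicate block.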

How the results depend on the processing

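Of 1074 values of the 9 genes under alternative settings, over 54 combinations of gene and comparison, 957 kept their direction and side of the threshold, 68 lost a call, 30 gained one and 19 changed direction, none of these a called value. In CHF placebo against sham placebo, Flt1 was 0.084 without the 3 lungs of largest 3′ to 5′ difference, 0.043 without the 3 lungs with cardiomyocyte signal and 0.086 as a mean of probe sets, and -0.24 to 0.093 with 1 lung left out. Cldn5 was 0.10 without these low-integrity lungs and -0.24 to 0.014 with 1 lung left out, Emcn -0.18 with array weights and Cav1 0.10 as a mean of probe sets. In sham ketotifen against sham placebo, Tie1 was -0.18 with array weights and -0.036 to 0.17 with 1 lung left out, and Pecam1 was 0.23 without the low-integrity lungs. Cldn5 there was -0.048 with array weights, -0.040 after quantile normalization, -0.078 without the lungs with cardiomyocyte signal and -0.10 to 0.11 with 1 lung left out. The cause of these changes was not tested.

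The number of member probe sets called in CHF placebo against sham placebo was 0, but 5 with array weights and 0 to 1 with 1 lung left out. In CHF ketotifen against CHF placebo it was 2, but 8 with array weights, 0 with only these 2 groups fitted, and 1 to 7 with 1 lung left out. Counts over all probe sets under such settings are given below. Leaving out the low-integrity lungs or those with cardiomyocyte signal cannot change the Cldn5 difference of -1.16 between CHF ketotifen and CHF placebo lungs, as only sham lungs are removed. The unchanged size does not show that this call holds under these removals. In CHF ketotifen against sham ketotifen the number of member probe sets called was 7, and 4 to 7 with 1 lung left out. In the average over arms it was 6, and 5 to 8 with 1 lung left out. For the interaction it was 1, but 5 with array weights, 0 without a filter on low values, 0 with CHF ketotifen lungs 1 and 3 averaged, and 0 to 3 with 1 lung left out. With the replicate block the counts were 0, 2, 7, 0, 6 and 0 in the order of comparisons above with sham ketotifen against sham placebo in the fourth place.

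The removal of the 3 lungs with cardiomyocyte signal leaves 1 sham ketotifen lung, and that of the low-integrity lungs leaves 1 sham placebo lung. A lone lung is assumed to vary like the other groups, and the counts of member probe sets above leave both removals out. Those counts thus do not show that the member calls hold without these lungs. The ranges over the other settings below, for all probe sets, include both removals. Over all probe sets, the counts called in CHF placebo against sham placebo were 28, with 0 to 1496 when 1 lung was left out. In CHF ketotifen against CHF placebo they were 201, with 72 to 1219, and in CHF ketotifen against sham ketotifen 2145, with 766 to 1121. In sham ketotifen against sham placebo they were 14, with 4 to 722, in the average 3467, with 2021 to 4299, and for the interaction 61, with 21 to 303. Over the other settings they ran from 0 to 3236, 60 to 4134, 43 to 4139, 0 to 702, 60 to 6069 and 2 to 1132 in the same order. With 3 lungs a group, differences within the spread of single lungs were not detectable.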
